A study of Arabidopsis thaliana with 35 samples.

Results

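The chloroplast genome of Arabidopsis was followed at the RNA level in shoots that had been pretreated with ethanol or water and then left without water. Its genes were taken as every row whose identifier starts with ATCG, which gave 88 of the 27417 genes of the count table. All plants were wild type (Col-0), and all libraries were made from shoots. The tested plants received 10 mM ethanol for 3 days and were sampled when drought began and 10 and 13 days into it (0, 10 and 13 DAD, days after drought), and control plants received water for 3 days and were sampled at the same times. A further group was sampled before pretreatment. Each of the 7 groups had 5 libraries, 35 in all.

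The chloroplast genome carries genes for subunits of both photosystems, the cytochrome b6f complex, the ATP synthase, the NADH dehydrogenase-like complex and Rubisco, together with the core of a bacterial-type RNA polymerase and part of the plastid ribosome. Most other plastid proteins are encoded in the nucleus and imported, among them the sigma factors that guide the bacterial-type polymerase, the phage-type polymerases, and the RNA-binding proteins that process and protect plastid transcripts. In the chloroplast, a poly(A) tail usually marks a transcript for decay rather than for translation. The libraries were primed from poly(A), so a value here is the number of chloroplast fragments that entered such a library, and not the chloroplast part of total RNA. In whole shoots, fewer green cells, fewer plastids and less RNA per plastid cannot be told apart.

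Total counts per library ran from 3589540 to 13440389, and the chloroplast genes took between 33139 and 426273 of them. Between 82 and 88 of the 88 genes had at least 1 count in a library. Ethanol replicate 2 at 10 DAD had the highest chloroplast share of its group, 3.55% where the next library had 2.67%. The shares and counts at 10 DAD in ethanol plants are given with and without it, a choice made after its value was seen. Replicate 4 before pretreatment had the highest share of all libraries, 3.77% where the next of its group had 2.82%, and was kept throughout. As a check of the labelled tissue, the summed level of 5 nuclear marker genes of green shoot ran from 40372 to 53111 CPM (counts scaled to a common library total) in the 15 libraries before drought, and 5 root markers summed to at most 479 CPM in any library. The same green-shoot sum was 2943 to 9235 CPM in ethanol libraries at 13 DAD and 1784 to 2573 CPM in water libraries at 13 DAD.

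The TAIR10.1 chloroplast annotation of RefSeq was used to name 6 identifiers: ATCG00420 (ndhJ), ATCG00430 (ndhK), ATCG00530 (cemA), ATCG00660 (rpl20), ATCG00670 (clpP) and ATCG01310 (rpl2). The others are called by identifier. ndhJ and ndhK encode subunits of the NADH dehydrogenase-like complex, cemA an envelope membrane protein, clpP the catalytic subunit of the stromal Clp protease, and rpl20 and rpl2 proteins of the plastid ribosome. The rpl2 gene lies in 2 identical copies, at 84337-85843 on the minus strand and 152806-154312 on the plus strand, so its reads cannot be assigned to either copy. For the identifiers not named here second copies are not given, so this limit could hold for some of those as well. Since the oligo-dT primer can also anneal to runs of A inside a transcript, the longest run of A in each of these genes was looked up on its coding strand. The stretches around these runs are shown for the gene with the longest run, clpP (70381-70440, minus strand, in an intron), for rpl20 (68512-68571, minus strand, coding exon), and for the gene with the shortest run, ndhJ (48865-48924, minus strand, coding exon), all from RefSeq on the TAIR10.1 chloroplast sequence, 5′ to 3′ on the coding strand with the run in capitals.
clpP: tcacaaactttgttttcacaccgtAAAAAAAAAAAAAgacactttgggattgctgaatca
rpl20: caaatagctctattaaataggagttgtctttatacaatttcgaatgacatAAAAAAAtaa
ndhJ: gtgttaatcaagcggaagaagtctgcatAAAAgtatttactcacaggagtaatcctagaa
The run was 13 bases long in clpP, 7 in rpl20 and rpl2, 6 in ndhK and cemA, and 4 in ndhJ. Among the 86 protein-coding gene copies of this chromosome, 44.2% held a run of 7 or more, and 5.81% a run of 13 or more. Per kb of gene, the mean normalized count over the 35 libraries was 2144 for clpP, 330.5 for ndhJ, 203 for cemA, 186 for rpl20, 142 for rpl2 and 124 for ndhK. clpP, with the longest run, had the highest level per kb of the 6, while ndhJ, with the shortest, came next, so the level did not follow the length of the run throughout. A run is a description of the sequence, and no priming site was measured.

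A few genes held most of the chloroplast counts. Averaged over the 35 libraries, ATCG00470 held 22.4% of the summed normalized counts of the 88 genes, ATCG00790 14.5%, ATCG01020 11.6%, ATCG01130 8.52%, ATCG00440 7.32%, ATCG00220 7.15%, ATCG00740 3.70% and clpP 2.84%. With ATCG00720 and ATCG00800 these were the 10 most abundant, and they made up 81.4%. Their mean normalized counts ranged from 2357 for ATCG00800 to 33376 for ATCG00470. These levels were not corrected for gene length, and they rank fragments that entered poly(A)-primed libraries and not transcripts. Of the 88 genes, 19 averaged at least 1000 normalized counts, 27 lay between 100 and 1000, 33 between 10 and 100, and 9 below 10. After the filter on low counts, 74 genes could be tested in all 11 comparisons and 4 in none (ATCG00870, ATCG00890, ATCG01250 and ATCG01270).

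The chloroplast share of all counts fell late in the drought. After water pretreatment it was 2.92, 3.17, 2.25, 2.43 and 3.20% at 0 DAD, 2.08, 2.46, 2.34, 2.07 and 1.74% at 10 DAD, and 0.933, 0.828, 0.697, 0.881 and 0.631% at 13 DAD. The 5 libraries at 13 DAD lay below every library at 10 and at 0 DAD, while 3 of the 5 at 10 DAD lay below every library at 0 DAD. The group means were 2.80% ± 0.435, 2.14% ± 0.282 and 0.794% ± 0.127 (SD, n = 5 each), so that the share at 13 DAD was 3.52-fold lower than at 0 DAD.

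After ethanol pretreatment the share was 2.92, 2.88, 3.01, 2.49 and 2.64% at 0 DAD, 1.91, 3.55, 2.67, 1.92 and 2.18% at 10 DAD, and 1.08, 0.923, 1.51, 1.19 and 1.33% at 13 DAD. Again no library at 13 DAD reached a library of the earlier times, and those at 10 DAD overlapped those at 0 DAD. The means were 2.79% ± 0.215, 2.44% ± 0.689 and 1.21% ± 0.227 (SD, n = 5 each), a 2.31-fold lower share at 13 than at 0 DAD. Without replicate 2 the mean at 10 DAD was 2.17% ± 0.355 (SD, n = 4), so that the ratio of 10 to 0 DAD was 0.778, against 0.877 with it, and that of 13 to 10 DAD 0.557, against 0.494 with it. The share is a single summed value over genes chosen with results of these data known, so no p is given for it.

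**Figure D1:**
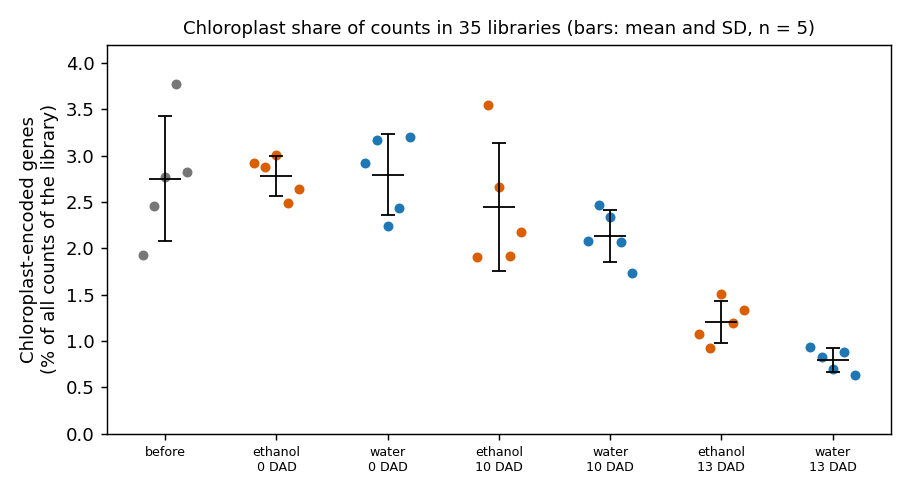
Share of all counts in a library that fell in the 88 chloroplast-encoded genes (%), 1 point per library, for the group before pretreatment and for ethanol and water plants at 0, 10 and 13 DAD; bars are mean and SD (n = 5). The libraries at 13 DAD lie at 0.923 to 1.51% (ethanol) and 0.631 to 0.933% (water), below all others, and ethanol replicate 2 at 10 DAD is high at 3.55%.

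Between pretreatments, the share at 13 DAD averaged 1.21% in ethanol plants and 0.794% in water plants, a ratio of 1.52. Of the ethanol libraries 4 lay above every water library and the remaining one, at 0.923%, lay just below the highest water library at 0.933%. At 10 DAD the ratio was 1.14, or 1.02 without ethanol replicate 2, and at 0 DAD 0.996, with overlapping libraries at both times. Water plants at 0 DAD averaged 2.80% and plants before pretreatment 2.75% ± 0.674 (SD, n = 5), a ratio of 1.02. The share of mitochondria-encoded genes, the other organelle genome, did not follow this course: it was 0.0172% at 13 DAD and 0.00803% at 0 DAD in water plants, and 0.0214% at 13 DAD and 0.00936% at 0 DAD in ethanol plants, higher at 13 DAD in every library of both arms. The mitochondrial share was small throughout, from 0.00683 to 0.026% over all libraries, and thus rests on few reads.

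Single chloroplast genes were then compared with edgeR's quasi-likelihood test, fitted to all genes and adjusted over all genes tested by Benjamini-Hochberg (FDR). A gene was called where the FDR was under 0.1 and the change at least 2-fold, and fold changes are log2 values ± SE. The filter asks for counts in enough libraries of either group, so a gene at low level in one group could pass through the group in which it was high. In water plants at 13 against 0 DAD, 50 of the 78 tested chloroplast genes (64.1%) were called lower, where 30% of all 16851 tested genes were. By edgeR 0 were called higher, where 22.6% of all tested genes were, with 0 higher at an unadjusted p under 0.05 and 0 called higher by DESeq2. The median change of the 78 was -1.26, and in 46 of them (59.0%) the 5 libraries at 13 DAD all lay below the 5 at 0 DAD, which held for 34% of all tested genes.

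The strongest falls in water plants were those of ATCG00650 (-3.65 ± 0.54), ATCG00790 (-3.45 ± 0.18), ATCG00800 (-3.35 ± 0.22), ATCG00820 (-3.24 ± 0.21) and ATCG01130 (-3.20 ± 0.27). ATCG00790, the second most abundant, had 3071, 3071, 2671, 4598 and 2403 normalized counts at 13 DAD, against 33482, 33789, 25301, 38487 and 43476 at 0 DAD. The highest library at 13 DAD was thus far below the lowest at 0 DAD (FDR 3.4e-11 by edgeR's quasi-likelihood test). ATCG01130 had 2737, 2103, 2012, 3099 and 1607 normalized counts at 13 DAD, against 19945, 14501, 17153, 21276 and 35000 at 0 DAD. Its groups did not overlap either (FDR 8.4e-07 by the same edgeR test), and one library at 0 DAD was well above the other 4.

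The most abundant gene, ATCG00470, fell by 2.62 ± 0.23 in water plants between 0 and 13 DAD. It had 9706, 12198, 8127, 8108 and 6978 normalized counts at 13 DAD, against 60533, 87176, 42857, 44406 and 44624 at 0 DAD, with no overlap. ATCG01020 fell by 1.54 ± 0.22, and ATCG00440 by 0.83 ± 0.17, which was under 2-fold. clpP fell by 0.92 ± 0.22 on the log2 scale (FDR 0.0019 by edgeR's quasi-likelihood test), also under 2-fold: it had 3399, 3130, 2061, 2634 and 1461 normalized counts at 13 DAD, against 4444, 4758, 4009, 4451 and 6682 at 0 DAD.

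Some chloroplast genes changed little between 0 and 13 DAD. ATCG00020 had 2146, 2478, 1980, 1906 and 1965 normalized counts in water plants at 13 DAD, against 2067, 1893, 1768, 2045 and 1946 at 0 DAD, a change of 0.12 ± 0.10. Its libraries overlapped at every time and in both arms. ATCG00220 had 9335, 10652, 7911, 6693 and 7519 normalized counts at 13 DAD, against 11397, 8946, 8036, 12544 and 9257 at 0 DAD, a change of -0.24 ± 0.13 that did not pass (FDR 0.11 by edgeR's quasi-likelihood test). At 10 DAD between them it was higher than at 0 DAD (0.52 ± 0.19, FDR 0.032 by edgeR), and it was lower at 13 than at 10 DAD (-0.79 ± 0.18, FDR 0.00098 by edgeR), both under 2-fold. Of the 19 genes that averaged at least 1000 normalized counts, 12 were called lower, 4 passed the FDR alone and 3 did neither. A threshold on the FDR alone gave 65 lower and 1 higher (ATCG00350) among the 78. Of all 16851 genes tested in this comparison, 6936 were lower and 6537 higher by that threshold.

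**Figure D2:**
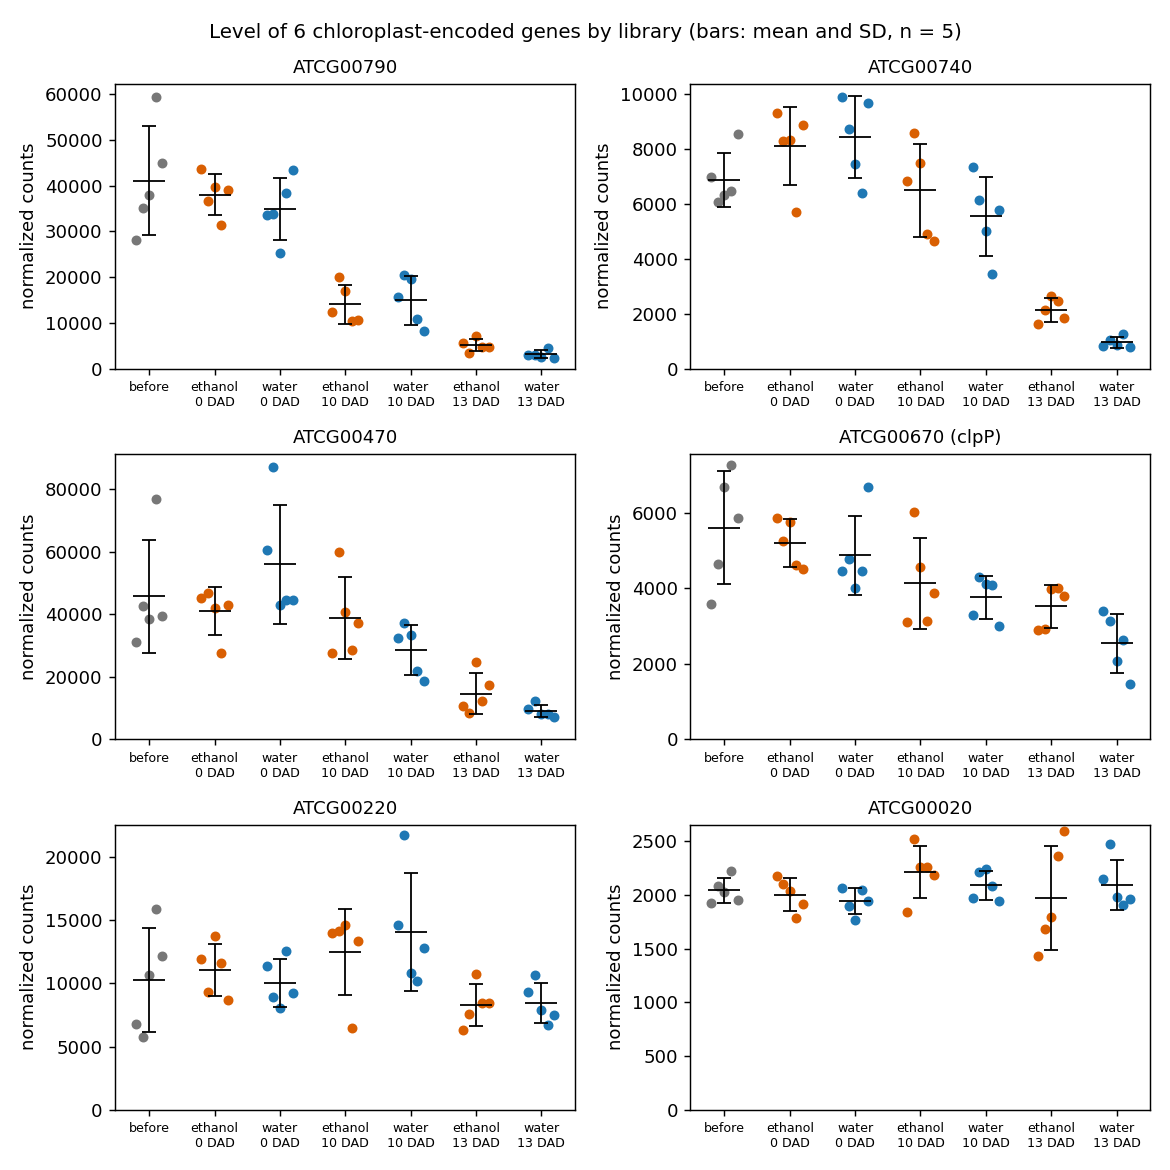
Normalized counts (linear axis from 0) of 6 chloroplast-encoded genes, 1 point per library, before pretreatment and in ethanol and water plants at 0, 10 and 13 DAD. Bars are mean and SD (n = 5). ATCG00790, ATCG00740 and ATCG00470 are lowest at 13 DAD, clpP moves less, ATCG00020 overlaps at every time, and ATCG00220 in water plants is higher at 10 DAD (0.52 ± 0.19) and lower again at 13 DAD (-0.79 ± 0.18).

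The fall was mostly between 10 and 13 DAD. In water plants at 13 against 10 DAD, 46 of 76 tested chloroplast genes (60.5%) were called lower, against 25.6% of all genes tested, with a median of -1.21. The 5 strongest were ATCG01010 (-2.92 ± 0.16), ATCG00740 (-2.58 ± 0.18), ATCG00650 (-2.49 ± 0.19), ATCG00790 (-2.29 ± 0.25) and ATCG00760 (-2.16 ± 0.26). At 10 against 0 DAD, 9 of 79 (11.4%) were called lower, close to the 10.6% of all genes, and the median was -0.15.

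Among those 9 were ATCG01130 (-1.61 ± 0.30), ATCG00800 (-1.54 ± 0.21), ATCG00820 (-1.36 ± 0.31), ATCG00650 (-1.19 ± 0.47) and ATCG00790 (-1.19 ± 0.22), all of which were lower again at 13 DAD. ATCG00790 had 15597, 20398, 19528, 10918 and 8258 normalized counts at 10 DAD, all below its libraries at 0 DAD. ATCG00140 was the 1 gene called higher at 10 DAD (1.06 ± 0.17, FDR 4.5e-05 by edgeR's quasi-likelihood test), where 6.26% of all tested genes were called higher. It had 126, 156, 125, 140 and 110 normalized counts at 10 DAD, against 65.4, 55.9, 48.1, 77.8 and 77.9 at 0 DAD, with no overlap. ATCG00440 was higher at 10 DAD by 0.71 ± 0.17, under 2-fold. The call of ATCG00650 at 10 DAD was lost in 6 of the 10 fits that each left out 1 library.

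Ethanol plants went through a fall of the same kind, from libraries that share no sample with the water arm. At 13 against 0 DAD, 42 of 80 tested chloroplast genes (52.5%) were called lower, against 24.8% of all genes tested, and edgeR called 0 higher, against 19.5% of all genes, with 1 higher at an unadjusted p under 0.05 and 0 by DESeq2. The median was -1.07. The largest changes were in ATCG01130 (-3.01 ± 0.17), ATCG00790 (-2.81 ± 0.20), ATCG00650 (-2.78 ± 0.38), ATCG00640 (-2.64 ± 0.32) and ATCG00040 (-2.53 ± 0.19). The change of ATCG00020 was 0.05, and that of ATCG00220 was -0.35 ± 0.17 and passed the FDR alone (FDR 0.088 by edgeR's quasi-likelihood test).

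At 13 against 10 DAD, 45 of 79 (57.0%) were called lower in ethanol plants, against 17.9% of all genes, with a median of -1.10. Without ethanol replicate 2 at 10 DAD this count was 27, while the 17.9% is from the fit with that library. The leading genes were ATCG01010 (-2.14 ± 0.26), ATCG00830 (-1.84 ± 0.25), ATCG00760 (-1.81 ± 0.28), ATCG00640 (-1.74 ± 0.42) and ATCG00380 (-1.70 ± 0.37). At 10 against 0 DAD, 5 of 84 (5.95%) were called lower, against 11.8% of all genes: ATCG01130 (-1.62 ± 0.21), ATCG00040 (-1.50 ± 0.36), ATCG00790 (-1.42 ± 0.17), ATCG00650 (-1.30 ± 0.36) and ATCG00800 (-1.06 ± 0.27), whose call was lost in 5 of the 10 fits that each left out 1 library. The median was -0.03, and 0.20 with scaling by library size only, which moved the median of all genes to 0.24. In all, 10 genes were called when ethanol replicate 2 at 10 DAD was left out, while the 11.8% is from the fit with that library.

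Some genes were called lower in both arms. Between 0 and 13 DAD, 35 genes were called lower in both, which was 83.3% of the 42 in ethanol plants and 70% of the 50 in water plants, and 71 of the 78 genes tested in both arms had a negative change in both. Of these 78 genes 44.9% were called lower in both arms, against 22.3% of all 16595 genes tested in both, while over all genes the shared calls were 90.1% of those in ethanol plants and 75.1% of those in water plants. Across these 78 genes, which are not independent replicates, the changes correlated with r = 0.826, as a description. From 10 to 13 DAD, 36 genes were shared, 80% of the 45 in ethanol plants and 78.3% of the 46 in water plants, against 91.6% and 62.4% over all genes.

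**Figure D3:**
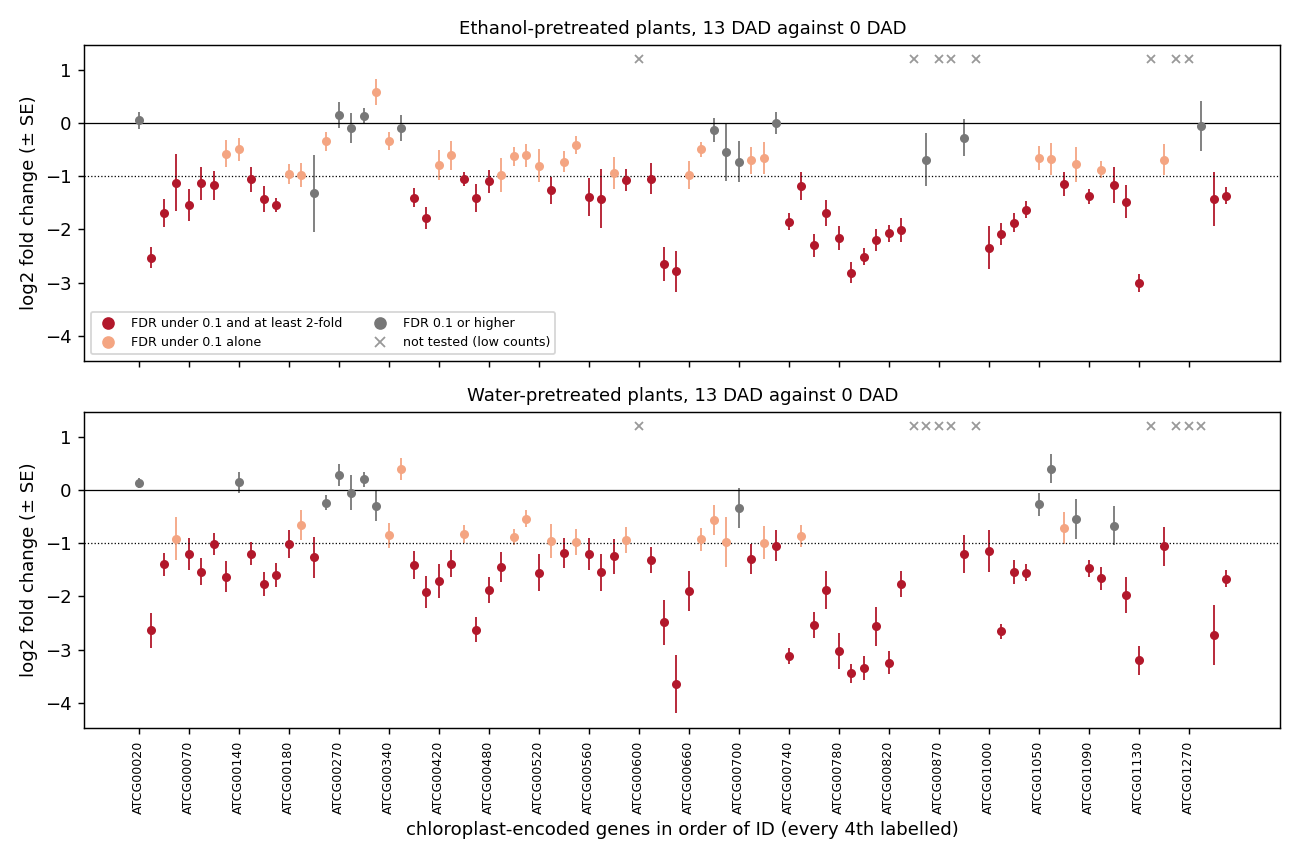
Log2 fold change (± SE) of each tested chloroplast-encoded gene at 13 against 0 DAD, in order of gene identifier, for ethanol plants (upper panel) and water plants (lower panel). The genes from ATCG00740 to ATCG00830 are low in both panels, with medians of -2.12 and -2.79.

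The falls were uneven along the identifiers, which follow the order of genes on the chromosome. The longest run of neighbouring identifiers called lower in water plants at 13 against 0 DAD was ATCG00760 to ATCG00830, 8 genes with changes from -3.45 to -1.76. The 10 genes from ATCG00740 to ATCG00830, a stretch chosen after its values were seen, had a median of -2.12 in ethanol plants (10 of 10 called lower, against 32 of the 70 other chloroplast genes with a median of -0.98) and -2.79 in water plants (9 of 10, against 41 of 68 with a median of -1.20). At 10 against 0 DAD their medians were -0.64 in ethanol plants and -0.76 in water plants. No test was made of the stretch.

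The make-up of the chloroplast counts changed accordingly. ATCG00790 made up 7.48% of them in ethanol plants and 5.58% in water plants at 13 DAD, against 18.5% and 16.7% at 0 DAD. ATCG00220 moved the other way, with 12.0% in ethanol plants and 15.1% in water plants at 13 DAD, against 5.39% and 4.87% at 0 DAD. The part of ATCG00470 was lower at 13 DAD in water plants (15.9%, range 13.0 to 18.8%, against 26.5%, range 19.2 to 36.2%, at 0 DAD). In ethanol plants it was 20.3% (15.6 to 27.4%), against 19.8% (16.1 to 22.4%) at 0 DAD. Before pretreatment it was 21.9%, so the arms also differed in their means at 0 DAD, with overlapping libraries. The 10 most abundant genes together held 74.2% in ethanol plants and 73.6% in water plants at 13 DAD, against 83.5% and 84.1% at 0 DAD.

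**Figure D4:**
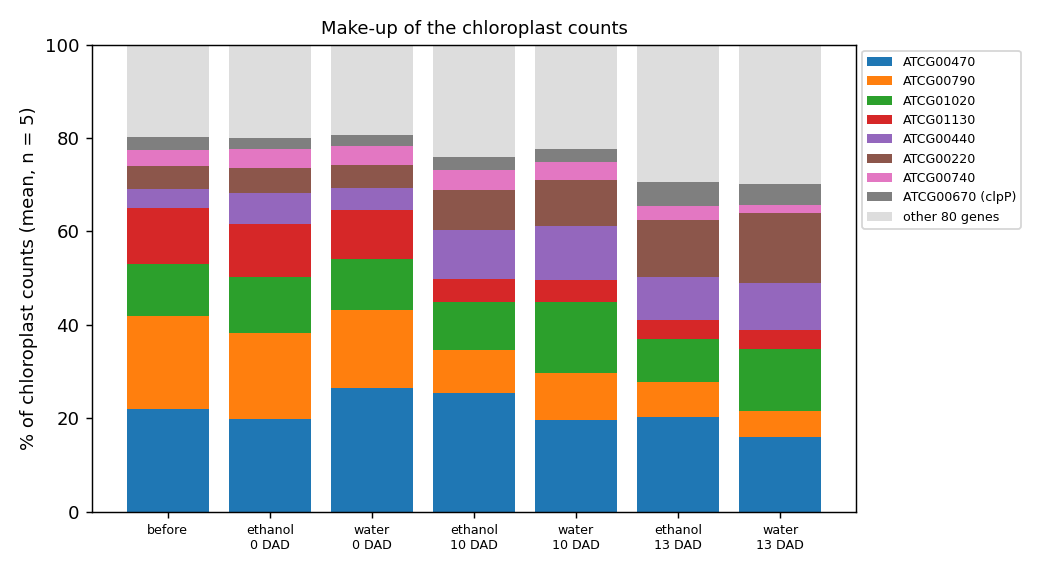
Mean percentage of the chloroplast counts held by the 8 most abundant chloroplast-encoded genes and by the other 80 together, in each group (n = 5). The band of ATCG00790 is narrower at 13 DAD (7.48% ethanol, 5.58% water) than at 0 DAD (18.5% ethanol, 16.7% water). That of ATCG00220 is wider at 13 DAD (12.0% ethanol, 15.1% water) than at 0 DAD (5.39% ethanol, 4.87% water). The band of ATCG00470 is narrower at 13 DAD in water plants (15.9%, against 26.5% at 0 DAD) but not in ethanol plants (20.3%, against 19.8%).

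Ethanol and water plants differed in few single chloroplast genes. At 13 DAD, 1 of 74 tested chloroplast genes (1.35%) was called higher in ethanol plants, against 8.79% of all 15394 genes tested, and edgeR called 0 lower, against 4.78% of all genes, with 0 lower at an unadjusted p under 0.05 and 1 called lower by DESeq2 (ATCG01000). With the FDR alone, 18 (24.3%) were higher, near the 21.3% of all genes, and the groups did not overlap in 2 (ATCG00740 and ATCG00820), against 9.51% of all genes. The median difference was 0.34, and it was positive in 62 of the 74. With scaling by library size only, which moved the median of all genes to 0.30, against 0.04 with the main scaling, the median was 0.59 and 12 of the 74 (16.2%) were called higher, against 14.6% of all genes. The green-shoot marker sum did not overlap between the groups (above), and the part of this in the result was not tested.

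The called gene, ATCG00740, had 1627, 2153, 2653, 2464 and 1832 normalized counts in ethanol plants at 13 DAD, against 832, 1031, 875, 1267 and 809 in water plants. Every ethanol library lay above every water library (1.21 ± 0.15, FDR 3.2e-05 by edgeR's quasi-likelihood test). At 0 DAD the gene had 9327, 8312, 8325, 5707 and 8899 in ethanol plants, against 9910, 8742, 7473, 6402 and 9677 in water plants, which overlapped. In both arms it was thus far lower at 13 than at 0 DAD, by 1.85 ± 0.17 in ethanol plants and 3.12 ± 0.15 in water plants on the log2 scale.

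ATCG00820 had 251, 316, 432, 305 and 301 normalized counts in ethanol plants at 13 DAD, against 178, 167, 140, 241 and 185 in water plants, a difference of 0.87 ± 0.16 (FDR 0.00088 by edgeR's quasi-likelihood test) without overlap but under 2-fold. ATCG00650 was just below the 2-fold line (0.997 ± 0.34), and ATCG00790 (0.76 ± 0.20) and ATCG00470 (0.75 ± 0.26) were further below it. clpP had 2888, 2913, 3982, 4008 and 3803 in ethanol plants, against 3399, 3130, 2061, 2634 and 1461 in water plants, overlapping groups with a difference of 0.52 ± 0.20. For ATCG01020 (-0.19 ± 0.23) and ATCG00220 (0.03 ± 0.16) no difference was detected.

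**Figure D5:**
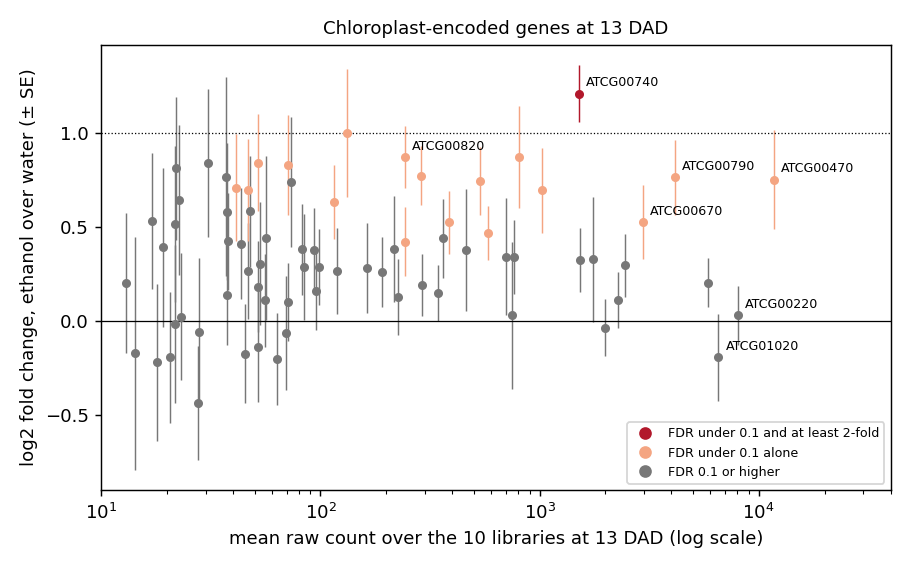
Log2 fold change (± SE), ethanol over water plants at 13 DAD, against the mean raw count over the 10 libraries (log axis), for the 74 tested chloroplast-encoded genes. Colours separate the 1 gene that passed the FDR and the 2-fold line (ATCG00740, at 1.21), those that passed the FDR alone, and the others.

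Whether the course of a gene from 0 to 13 DAD differed between the pretreatments was tested with an interaction term. Of 84 tested chloroplast genes, 5 (5.95%) were higher in ethanol plants than the water course would give, against 8.55% of all 17927 genes tested, and 1 (1.19%) was lower, against 4.74%. With scaling by library size only, 14 (16.7%) were higher, against 14.3% of all genes, and 0 were lower. The 5 were ATCG00740 (1.23 ± 0.23), ATCG00470 (1.17 ± 0.35), ATCG00820 (1.13 ± 0.26), ATCG00130 (1.02 ± 0.41) and ATCG00730 (1.01 ± 0.37), and the 1 was ATCG01060 (-1.11 ± 0.38). The differences between ethanol and water plants in these 5, in the same order, were 1.21, 0.75, 0.87, 0.87 and 0.69 at 13 DAD. At 0 DAD they were -0.05, -0.44, -0.29, -0.16 and -0.34, with none passing the FDR, and they enter the term too. Over the 20 fits that each left out 1 library, the call of ATCG00130 was lost in 14 and that of ATCG00730 in 9. The calls of ATCG00470 and ATCG01060 were lost in 2 each, that of ATCG00820 in 1 and that of ATCG00740 in 0. ATCG01060 was a gene of few counts, with 20.8, 36.7, 28.9, 16.2 and 21.0 normalized counts in ethanol plants at 13 DAD and 34.9, 44.2, 31.5, 21.1 and 37.8 in water plants at 13 DAD, a difference of -0.44 ± 0.30. At 0 DAD it had 25.4, 44.9, 53.3, 49.6 and 30.9 in ethanol plants and 23.7, 22.0, 31.7, 27.9 and 25 in water plants, a difference of 0.64 ± 0.26. Neither difference passed the FDR, and the groups overlapped at both times. Without water replicate 2 at 0 DAD, 2 genes were called in all, and without ethanol replicate 3 or replicate 4 at 13 DAD, 3 were. The shares of all genes given above are from the fits with all libraries.

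At the earlier times the pretreatments were not separated by any called chloroplast gene. At 10 DAD, 0 of 80 tested genes were called by edgeR's quasi-likelihood test, against 0.068% of all 16171 genes, and 1 was called by DESeq2. By edgeR, 8 had an unadjusted p under 0.05 (7 higher and 1 lower in ethanol plants), against 1436 of all 16171 genes. At 0 DAD, directly after pretreatment, 0 of 84 were called by edgeR, against 0.0986% of all 17242 genes, and 0 by DESeq2. By edgeR, 12 had an unadjusted p under 0.05 (12 higher and 0 lower in ethanol plants), against 1865 of all 17242 genes. ATCG00140 passed the FDR alone there, with 140, 121, 101, 110 and 67.7 normalized counts in ethanol plants, against 65.4, 55.9, 48.1, 77.8 and 77.9 in water plants, a difference of 0.75 ± 0.19 with overlapping groups. Between water plants at 0 DAD and plants before pretreatment, 0 of 84 were called by edgeR, against 2.36% of all genes, and 0 by DESeq2. By edgeR, 8 had an unadjusted p under 0.05 (4 higher and 4 lower in water plants), against 4620 of all 17203 genes.

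Nuclear genes that act on the chloroplast genome or its products were described from 3 lists, to be read beside the shares of all tested genes called in the same comparisons: 30% lower and 22.6% higher in water plants at 13 against 0 DAD, and 24.8% lower and 19.5% higher in ethanol plants. Of 12 nuclear-encoded partner subunits of plastid complexes, 12 were called lower in water plants at 13 against 0 DAD, with a median of -4.06, and 12 were in ethanol plants. The largest changes in water plants were in small subunits of Rubisco, RBCS3B (-5.47 ± 0.12), RBCS2B (-5.35) and RBCS1B (-5.24), near-identical genes between which reads may be split. Of 10 plastid RNA-processing factors 8 were called lower in each arm. In water plants these had a list median of -2.44 and included the RNA-binding endonuclease proteins CSP41B (-4.14) and CSP41A (-4.03) and the RNA-binding protein CP31A (-3.35).

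The 21 genes of plastid transcription were mixed. In water plants at 13 against 0 DAD, 12 were called lower and 2 higher, with a median of -1.42, and in ethanol plants 14 and 2. Lower were PTAC7 (-2.98 ± 0.14), a protein of the transcriptionally active plastid chromosome, and the iron superoxide dismutases FSD2 (-2.51) and FSD3 (-2.35), which associate with the plastid polymerase. Higher were SIG5, a stress-responsive sigma factor (3.05 ± 0.13), and RPOTmp, a phage-type polymerase shared with mitochondria (1.37 ± 0.33). SIG5 had 1152 ± 177 normalized counts in water plants at 13 DAD and 140 ± 19.4 at 0 DAD (SD, n = 5 each).

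At 13 DAD, 6 of the 12 partner subunits were called higher in ethanol than in water plants (8.79% of all tested genes were) and none lower, with a list median of 0.88. They included the subunits NDHM (2.85 ± 0.55) and NDHO (2.48 ± 0.49) of the NADH dehydrogenase-like complex and PSAD1 of photosystem I (1.42 ± 0.34). NDHM had between 77.8 and 424 normalized counts in ethanol plants and between 26.4 and 39.5 in water plants. Of the RNA-processing factors, CSP41A (1.30 ± 0.25) and CSP41B (1.06 ± 0.30) were higher. None of the 21 transcription genes was called in either direction by edgeR or by DESeq2, and with the FDR alone by edgeR 3 were higher (SIG3, SIG5 and PTAC7) and 1 was lower (FLN1). The median of this list was -0.03, and 0.25 with scaling by library size only.

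Genes of the mitochondrial genome, 122 in all, served as the other organelle set, and most of them had too few counts to be tested. In water plants at 13 against 0 DAD, 6 of 19 tested were called higher (22.6% of all genes were) and none lower, with a median of 0.52, and in ethanol plants 9 of 18 higher (19.5% of all genes) and none lower, with a median of 1.01. Between ethanol and water plants at 13 DAD, 1 of 17 was higher (8.79% of all genes), with a median of 0.32.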

How the data were processed

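RNA was taken from Arabidopsis shoots and sequenced with an oligo-dT-primed 3′ method (Lasy-Seq). Per the labels and the methods, the authors demultiplexed reads with bcl2fastq, trimmed them with Trimmomatic, aligned them with HISAT2 (TAIR10) and obtained stranded gene counts with featureCounts from primary alignments, counting a read for each gene it overlapped. The deposited raw counts are whole reads per gene. The deposited normalized signal is the raw count divided by 1 factor per library, from DESeq2 by the authors, and was used for levels. The labels and the methods differ in the RNA kit and in the days of growth before pretreatment.

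The raw counts were tested with edgeR 4.0.16 in R 4.3.3 (TMM, filterByExpr, robust quasi-likelihood F test, two-sided), on the libraries of the groups compared, with adjustment over all genes tested. The SE was taken as the log2 fold change over √F. DESeq2 1.42.0 was an alternative, and the code was tested on simulated data. Shares are percentages of all counts of a library. Members, lists and tests were chosen with earlier results of these data known. Named were the 10 genes of highest mean level and, per comparison, up to 5 called genes per direction with the largest change and a mean of at least 20 raw counts. Naming by complex was not applied, since the sources used here pair few identifiers with names. Genes pointed out beyond this rule were chosen after their values were seen. Groups came from the labels, and 0 columns lacked a sample. The methods call the replicates biological, and the p-values measure the spread between the libraries of a group. Replicate numbers did not pair the samples by the correlation of their deviations. Results for 1 item are not reported here.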

Additional observations from a re-analysis of the deposited data

Results flagged for a closer look

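In 6 of the 77 gene and group combinations examined over the most abundant chloroplast genes (11 genes in 7 groups) 1 library lay far from the other 4, and chance alone gives about 1 in 20. ATCG00470 was high in 1 library before pretreatment, with 76824 normalized counts where the next highest had 42665. The same gene was low in ethanol replicate 4 at 0 DAD, with 27708 where the next lowest had 42039. With 3781405 total counts this library was the shallowest of its group. clpP (ATCG00670) had 6682 normalized counts in 1 water library at 0 DAD, where the next had 4758. ATCG00740 had 5707 in ethanol replicate 4 at 0 DAD, the library in which ATCG00470 was low, where the next lowest had 8312. Values of different genes in 1 library are not independent, so these are not separate cases to set against chance. ATCG00220 had 6499 in 1 ethanol library at 10 DAD, where the next lowest had 13329. ATCG01020 had 9314 in 1 ethanol library at 13 DAD, where the next highest had 6127.

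The course between 0 and 13 DAD was called different between ethanol and water plants in 6 chloroplast genes by the interaction term of edgeR's quasi-likelihood test with Benjamini-Hochberg adjustment. The log2 interaction was 1.23 for ATCG00740 (FDR 0.00043), 1.17 for ATCG00470 (FDR 0.022), 1.13 for ATCG00820 (FDR 0.0038), 1.02 for ATCG00130 (FDR 0.087), 1.01 for ATCG00730 (FDR 0.063) and -1.11 for ATCG01060 (FDR 0.042). Of the 20 fits that each left out 1 library, 14 lost the call of ATCG00130 and 9 that of ATCG00730. For ATCG00470 and ATCG01060 it was 2 each, for ATCG00820 1 and for ATCG00740 0.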

How the results depend on the processing

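The count of chloroplast genes called in ethanol against water plants at 13 DAD, 1 in the main test, was 2 with DESeq2, 12 with library size only, 2 with all genes of at least 1 count, 4 with all 7 groups in 1 fit, 18 with the FDR alone, and 1 to 4 without single libraries. At 10 DAD it was 1 with DESeq2 (0 in the main test), and at 0 DAD 1 with the FDR alone and 0 to 1 without single libraries. Of all 17242 genes at 0 DAD, 140 were higher and 53 lower with the FDR alone. With the FDR alone the count was 30 of 79 for water plants at 10 against 0 DAD. Of all 16694 genes tested there, 4379 were higher and 4210 lower. In ethanol plants the count was 12 of 84 at 10 against 0 DAD. Of all 16918 genes tested there, 4345 were higher and 4548 lower. At 13 against 0 DAD it was 67 of 80 in ethanol plants, with 6313 higher and 6068 lower of all 17093 genes. Water plants against plants before pretreatment gave 1 with library size only, 2 with the FDR alone and 0 to 2 without single libraries. Of all 17203 genes tested there, 1441 were higher and 1938 lower with the FDR alone. The interaction gave 14 with library size only and 2 to 8 without single libraries. Leaving out single libraries gave 7 to 13 (water, 10 against 0 DAD), 44 to 49 (water, 13 against 10), 47 to 56 (water, 13 against 0), 4 to 10 (ethanol, 10 against 0), 27 to 52 (ethanol, 13 against 10) and 37 to 49 (ethanol, 13 against 0). The shares of all genes called in the fits without single libraries are not given here. With the replicate number as a block, the counts were 1 for ethanol against water plants at 10 DAD and 1 for water plants against those before pretreatment, and it changed no other call count by over 1.5 times. With the 10 most abundant genes of each library left out of both terms, which took a chloroplast gene out of the numerator in 4 libraries (2 of them water libraries at 0 DAD), the log2 ratio of the share was 0.21 for ethanol against water plants at 0 DAD (main -0.01) and -1.58 for water plants at 13 against 0 DAD (main -1.82). With these genes left out of the denominator only and all chloroplast genes kept, an alternative added after seeing the data, the ratios were -0.0043 and -1.79. Of 668 alternative values of the named genes 617 kept direction and side of the threshold, 51 lost the call and 0 turned. Leaving out rRNA and tRNA genes could not be run, since the sources used here do not pair the identifiers with gene types. The cause of the other changes was not tested. The low counts of the 9 genes under 10 normalized counts limit what could be detected in them.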
